A study of Drosophila melanogaster with 4 samples.

Results

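Cytochrome P450 genes were examined in sorted cells of Drosophila melanogaster embryos. The group holds the 85 genes, of 14794 listed, whose symbol consists of Cyp, a number and a lower-case letter, which leaves out the cyclophilin-type gene Cyp1. Members were selected on the symbol and chosen by no measured value, although the family itself was picked for description with folds of these data already known. The study sequenced RNA from 4 populations sorted by flow cytometry, with 1 library each. Caudal visceral mesoderm (CVM) cells, which migrate along the gut primordium and later form gut muscle, and the non-CVM cells came from embryos of stages 10 to 13. Hemocytes (HC), the blood cells of the fly, and the non-hemocytes came from stages 12 to 16. The labels give no genotype, reporter or driver for the sorts.

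The condition names in each table are only q1 and q2, and no label says which sorted population either is. All folds are therefore q2 over q1: a positive log2 fold is higher in q2 and a negative one higher in q1. The level in each condition, in FPKM, was not used here because its column names no population, so the genes are described by their folds and not by how many exceed a given level. Markers of the sorted cells lay mostly on the q1 side. In the authors' deposited table for CVM, 0 of 8 measured CVM markers were at least 2-fold higher in q2 and 6 in q1, with HLH54F, which specifies this tissue, at a log2 fold of -6.04. In the authors' deposited table for HC, 1 of 8 measured hemocyte markers was at least 2-fold higher in q2 and 7 in q1, with the GATA factor srp at -3.25. Relative to the median of the HC table, which lies above 0, 0 hemocyte markers were 2-fold higher in q2 and 7 in q1. The populations were not assigned from these values. In sorted bulk cells, fewer cells of a type and less RNA per cell cannot be told apart.

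P450 enzymes are heme-containing monooxygenases that insert oxygen into small lipophilic molecules. Insect members fall into clans. Members of clan 3, such as the Cyp6 and Cyp9 families, are best known for metabolism of plant toxins and insecticides, while clan 4 holds the large Cyp4 family, several of whose enzymes act on fatty acids and hydrocarbons. Clan 2 and the mitochondrial clan include the enzymes that make and inactivate the moulting hormone ecdysone. Most of these enzymes are known from larval and adult gut, Malpighian tubules, fat body and oenocytes.

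The 85 genes belonged to 20 numbered families, of which Cyp6 with 25 genes and Cyp4 with 22 were the largest. Cyp12 had 7 genes, Cyp9 and Cyp313 had 6 each, Cyp28 had 4, Cyp309 had 2, and the other 13 families had 1 each. By clan, 40 genes were in clan 3, 32 in clan 4, 9 in the mitochondrial clan and 4 in clan 2. On the chromosomes, 35 lay on arm 2R, 16 on 3R, 14 on 2L, 14 on X and 6 on 3L. A locus was shared with another listed gene by 29 of the 85, so their reads may be divided. Among these were Cyp6a2, Cyp6g1, Cyp6g2, Cyp4e1, Cyp12b2, Cyp301a1 and Cyp304a1. The symbol of 4 genes ends in Psi, the mark of a pseudogene. A current annotation still lists 2 of these as pseudogenes, and names the other two, Cyp6a16Psi and Cyp9f3Psi, Cyp6a16 and Cyp9f3.

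Many P450 genes had no test by the authors. The status OK in the authors' deposited table for CVM was held by 46 of the 85 genes (54.1%), against 67.8% of all listed genes. The authors' deposited table for HC gave it to 58 (68.2%), against 72.7% of all listed genes. A gene counted as measured when it also had a finite fold that was not set to exactly 0, as did 43 genes of the CVM table and 53 of the HC table. By family in CVM these were 13 of 25 Cyp6, 12 of 22 Cyp4, 4 of 6 Cyp9, 3 of 7 Cyp12, 2 of 4 Cyp28 and 0 of 6 Cyp313 genes. In HC they were 19 Cyp6, 13 Cyp4, 3 Cyp9, 4 Cyp12, 2 Cyp28 and 1 Cyp313 gene. A gene can reach this status through the condition where it is high, so the measured genes do not stand for all 85. Measured in neither table were 23 genes, among them 5 of the 6 Cyp313 genes and all members of Cyp308, Cyp311, Cyp312 and Cyp318. That set also held Cyp4d21, which is known from male mating behaviour. Of all 14794 genes, 9580 were measured in CVM, 10088 in HC and 8927 in both, beside 43, 53 and 34 of the 85. By these counts the share of P450 genes measured in neither table lay near that of all genes.

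Counted over every status, 18 of the 85 genes leaned towards q2, 58 towards q1 and 9 were at a fold of exactly 0 in the authors' deposited table for CVM. Of these, 1 was listed at 0 in q1 and 15 were listed at 0 in q2. For HC, 40 leaned towards q2, 36 towards q1 and 9 were at exactly 0 in the authors' deposited table, with 6 listed at 0 in q1 and 7 at 0 in q2. No fold is given against a condition listed at 0. The same counts were not made over all genes, and those of HC are not centred on its median. Among measured genes of the CVM table, 79.1% of P450 genes lay below 0, beside 49.6% of all genes. For HC the shares were 43.4% and 30.1%.

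**Figure D1:**
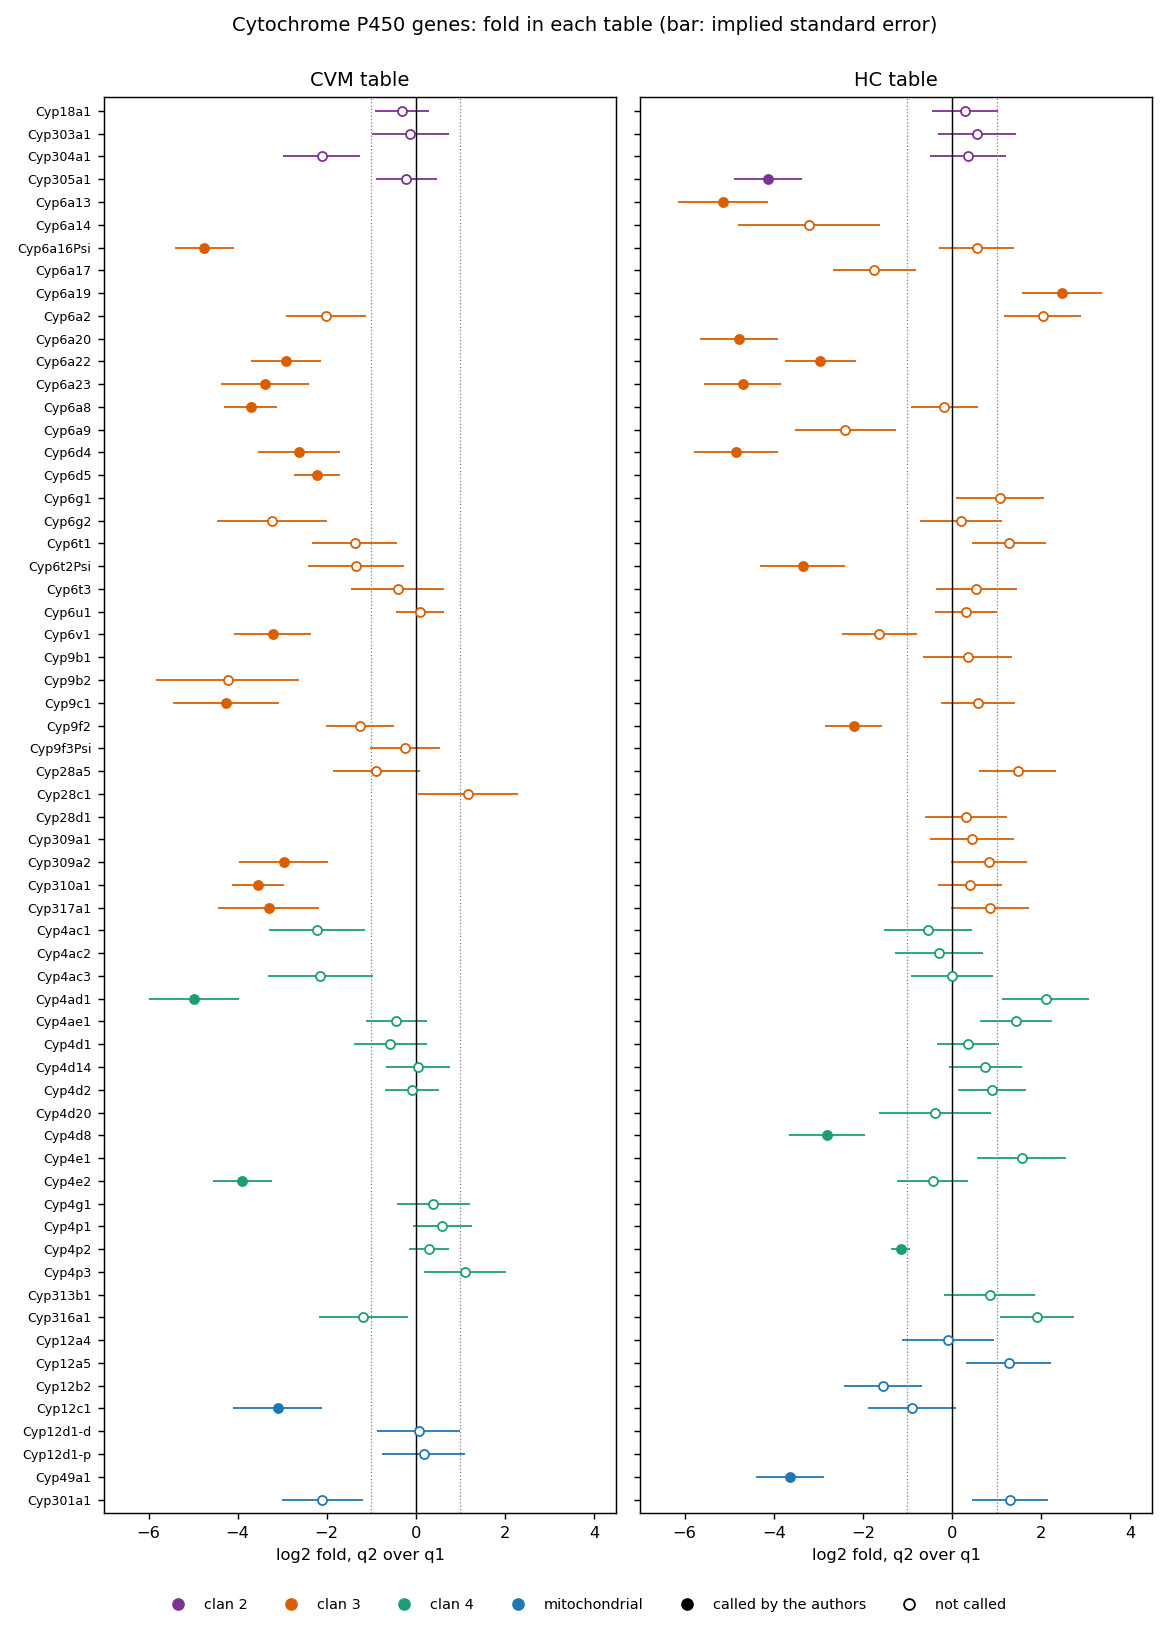
Log2 fold of q2 over q1 for each P450 gene measured in at least 1 table, ordered by clan and family, with the standard error that the authors' statistic implies as a bar and dotted lines at 2-fold. Filled points were called by the authors. In CVM all 14 filled points lie left of 0, and in HC 12 filled points are drawn, of which Cyp6a19 lies right of 0.

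In the CVM table, each of the 14 P450 genes that the authors called was higher in q1. Of 43 measured genes, 2 were at least 2-fold higher in q2 and 25 in q1 in the authors' deposited table. Over all 9580 measured genes the shares were 4.58% in q2 and 17.6% in q1. A gene of status OK counted as called at the authors' q-value under 0.05. Among the P450 genes of that status this gave 0 calls higher in q2 and 14 of 46 higher in q1, beside 0.728% and 8.23% of all such genes. The median log2 fold of the measured P450 genes was -1.38, beside 0.0047 for all measured genes. With 1 library per population these calls compare reads of 2 libraries, not conditions, and no difference has a replicate check. The error given below after ± is the standard error implied by the authors' statistic, which holds no variation between samples.

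The Cyp6 family made up 7 of the 14 calls. None of its 13 measured genes was 2-fold higher in q2 and 11 were 2-fold higher in q1, with a median of -2.62 in the authors' deposited table for CVM. Cyp6a16Psi (arm 2L, 5621602 to 5623760, BDGP5) had -4.75 ± 0.66 (q-value 1.38e-10) and Cyp6a8, a gene overexpressed in DDT-resistant strains, -3.71 ± 0.60 (4.42e-08) in the authors' deposited table. Cyp6a23 had -3.39 ± 0.99, Cyp6v1 -3.21 ± 0.87, Cyp6a22 -2.92 ± 0.79, Cyp6d4 -2.62 ± 0.92 and Cyp6d5 -2.23 ± 0.52, all called in the authors' deposited table for CVM. Cyp6d5 shares its locus with rdx, so its reads may be divided with that gene.

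Uncalled Cyp6 genes included some with large folds. Cyp6g2 had -3.22 ± 1.23 and Cyp6a2, which metabolises DDT, -2.02 ± 0.89 in the authors' deposited table for CVM, with q-values of 0.0836 and 0.169. Cyp6t1 had -1.38 and Cyp6t2Psi -1.33 in the authors' deposited table, each with an implied error of about the same size (0.96 and 1.08). Only Cyp6t3, which is linked to ecdysone synthesis, and Cyp6u1 stayed within 2-fold among the measured Cyp6 genes, at -0.40 and 0.10 in the authors' deposited table for CVM.

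Clan 3 outside Cyp6 lay on the same side with 1 exception. Cyp9c1 had -4.26 ± 1.19, Cyp310a1 -3.55 ± 0.59, Cyp317a1 -3.30 ± 1.14 and Cyp309a2 -2.96, and each had a call in the authors' deposited table for CVM. Cyp9c1 and Cyp310a1 share their loci with other genes. Cyp9b2, at -4.22 ± 1.60, missed the limit (q-value 0.0798), as did Cyp9f2, at -1.26 ± 0.76, and Cyp9f3Psi, at -0.24 ± 0.79, in the authors' deposited table. Cyp28c1 had the highest fold of all measured P450 genes, 1.17 ± 1.13, and was not called in the authors' deposited table for CVM. In the whole clan, 1 of 22 measured genes was 2-fold higher in q2 and 17 were 2-fold higher in q1.

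The Cyp4 family was divided. Of 12 measured genes, 1 was at least 2-fold higher in q2, 4 were 2-fold higher in q1 and 7 were within 2-fold, around a median of -0.26 in the authors' deposited table for CVM. Cyp4ad1 (arm 2R, 4326898 to 4330284, BDGP5) had -4.98 ± 1.01 (q-value 3.15e-05), the largest fold of any measured P450 gene in this table, and Cyp4e2 -3.89 ± 0.67 (4e-07) in the authors' deposited table. These were its only calls. Cyp4ac1 had -2.22 ± 1.08 and Cyp4ac3 -2.14 ± 1.18, neither called, in the authors' deposited table for CVM. They share a single locus with Cyp4ac2 and tkv, a receptor gene, and how reads were divided there is uncertain.

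The other Cyp4 genes had no call in CVM. Cyp4g1, an oenocyte enzyme that makes the hydrocarbons waterproofing the cuticle, had 0.39 ± 0.82 in the authors' deposited table for CVM, at a locus shared with the achaete-scute genes. Cyp4d1, Cyp4ae1, Cyp4d2 and Cyp4d14, all on the X chromosome, had -0.57, -0.43, -0.09 and 0.06 in the authors' deposited table for CVM. Cyp4p3, at 1.10 ± 0.92, Cyp4p1, at 0.60 ± 0.67, and Cyp4p2, at 0.29 ± 0.45, leaned towards q2 without a call in the authors' deposited table.

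Clan 2 and the mitochondrial clan gave 1 call in CVM. Cyp12c1 had -3.10 ± 0.99 (q-value 0.0245) in the authors' deposited table. Cyp304a1 at -2.11 ± 0.86 and Cyp301a1, a gene of cuticle formation, at -2.10 ± 0.90 were not called in the authors' deposited table for CVM. Cyp18a1, which inactivates ecdysone, had -0.31 ± 0.60, Cyp305a1 -0.21 ± 0.69 and Cyp303a1, a gene of sensory bristles, -0.12 ± 0.87 in the authors' deposited table. Cyp12d1-p and Cyp12d1-d, near-identical copies whose reads may be divided between them, had 0.18 and 0.06 in the authors' deposited table for CVM.

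**Figure D2:**
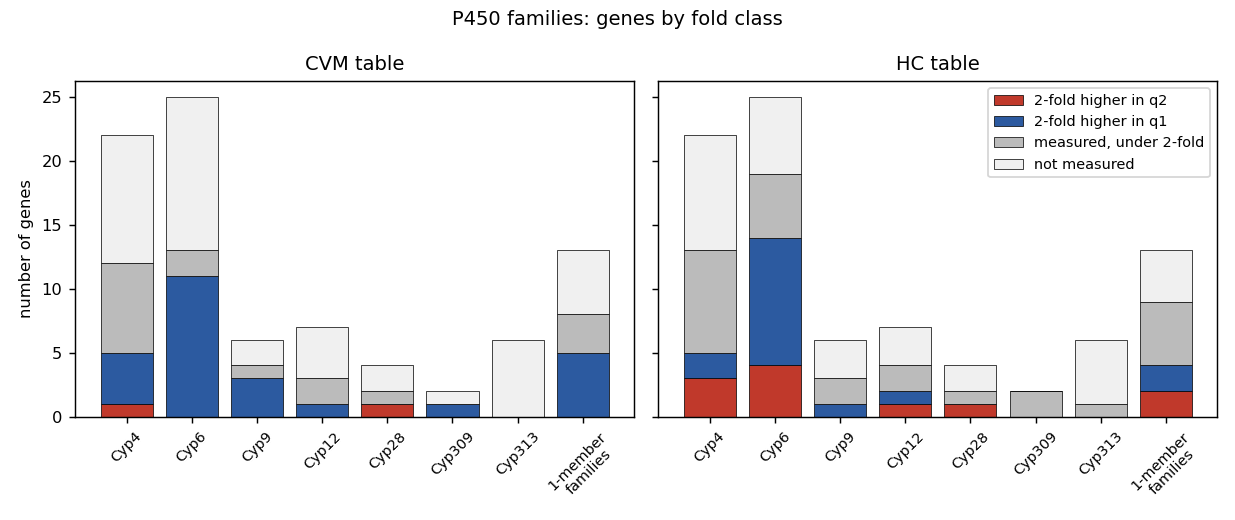
Number of P450 genes in each fold class by numbered family (horizontal axis) for the CVM and HC tables, with families of 1 gene pooled. In Cyp6, 0 of 13 measured genes were 2-fold higher in q2 and 11 in q1 of CVM, and 4 of 19 in q2 and 10 in q1 of HC, and of the 6 Cyp313 genes 0 were measured in CVM and 1 in HC.

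In the HC table, P450 genes lay on both sides, and most of the authors' calls were higher in q1. Of 53 measured genes, 11 were at least 2-fold higher in q2 and 16 in q1 in the authors' deposited table, beside 35.4% and 13.3% of all 10088 measured genes. This table as a whole was shifted: the median log2 fold of all measured genes was 0.62. Relative to that median, 4 P450 genes were 2-fold higher in q2 and 20 in q1, beside 16% and 22.1% of all measured genes. Calls by the authors at a q-value under 0.05 were 2 of 58 higher in q2 and 11 of 58 higher in q1, beside 6.85% and 5.75% of all genes of status OK. The median log2 fold of the measured P450 genes was 0.31 in the authors' deposited table, or -0.31 relative to the table's median.

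Cyp6a genes held 5 of the 13 calls in HC. Of 11 measured, 2 were 2-fold higher in q2 and 7 in q1, with a median of -2.39 in the authors' deposited table for HC. Cyp6a13 (arm 2R, 4458007 to 4459650, BDGP5) had -5.13 ± 1.01 (q-value 1.47e-05), Cyp6a20, which is known from male aggression, -4.78 ± 0.87 (1.85e-06) and Cyp6a23 -4.70 ± 0.87 (2.56e-06) in the authors' deposited table. Cyp6a22 was also called, at -2.95 ± 0.79, whereas Cyp6a17, known from temperature preference, was at -1.75 ± 0.93 with no call in the authors' deposited table for HC. Cyp6a19 was called higher in q2, at 2.47 ± 0.90 (q-value 0.0479), in the authors' deposited table. It shares its locus with Cyp6a9, which lay the other way at -2.39 ± 1.13 (q-value 0.133), so the division of reads between these copies is uncertain. Cyp6a2, at 2.04 ± 0.86, missed the limit with a q-value of 0.0921 in the authors' deposited table for HC.

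Outside Cyp6a, the family had 2 calls in HC. Cyp6d4 had -4.85 ± 0.93 (q-value 8.3e-06) and Cyp6t2Psi -3.35 ± 0.95 (0.00683) in the authors' deposited table. Cyp6v1 had -1.63 ± 0.84, Cyp6t1 1.28 ± 0.84 and the DDT-resistance gene Cyp6g1 1.07 ± 0.98 without a call in the authors' deposited table for HC. The folds of Cyp6t1 and Cyp6g1 were 0.66 and 0.46 relative to the table's median. Of the other clan 3 families only Cyp9 had a call, Cyp9f2 at -2.21 ± 0.65 (q-value 0.0102), while its relative Cyp9b1 was at 0.36, or -0.26 relative to the table's median, in the authors' deposited table. Cyp28a5, at 1.48 ± 0.87 (0.86 relative to the table's median), was the highest of the uncalled clan 3 genes outside Cyp6 in the authors' deposited table for HC.

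The remaining calls in HC were scattered over clans. Cyp305a1, of clan 2, had -4.13 ± 0.76 (q-value 2.22e-06) and Cyp49a1, of the mitochondrial clan, -3.64 ± 0.76 (5.4e-05, at a locus shared with G-oalpha47A) in the authors' deposited table. Cyp4d8 had -2.81 ± 0.85 (q-value 0.0146) in the authors' deposited table for HC. Its neighbour Cyp316a1 was at 1.91 ± 0.83 and missed the limit (q-value 0.102) in the authors' deposited table. The Cyp4p genes, which share a locus with hig, gave calls in both directions: Cyp4p1 was listed at 0 in q1 (q-value 9.79e-28), Cyp4p2 had -1.15 ± 0.21 and Cyp4p3 had a fold of exactly 0 in the authors' deposited table. How reads were divided among these copies is uncertain.

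The other measured genes of HC had no call. Cyp4ad1 had 2.11 ± 0.98, Cyp4e1 1.56 and Cyp4ae1 1.44 ± 0.82 in the authors' deposited table. Cyp301a1 had 1.31 ± 0.85 and Cyp12a5 1.28 ± 0.96 in the authors' deposited table for HC. Relative to the table's median, Cyp4ad1 had 1.49, while Cyp4e1 (0.95), Cyp4ae1 (0.82), Cyp301a1 (0.69) and Cyp12a5 (0.66) were within 2-fold. Cyp12b2 lay the other way at -1.54 ± 0.87 (q-value 0.217), as did Cyp6a14 at -3.22 ± 1.60 (0.156), in the authors' deposited table. Cyp18a1 had 0.29 ± 0.74, or -0.33 relative to the table's median, and the fold of Cyp4g1 was not estimated, its status being FAIL, in the authors' deposited table for HC.

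**Figure D3:**
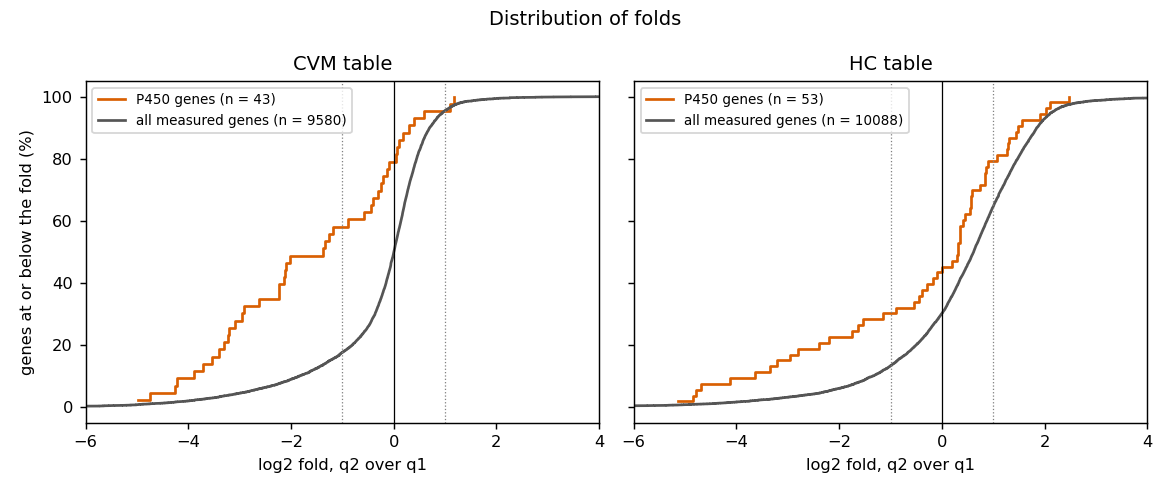
Cumulative share of genes (vertical axis, percent) at or below each log2 fold of q2 over q1 for the measured P450 genes and all measured genes of each table, with dotted lines at 2-fold; the far tails of all genes are not drawn. The P450 median is -1.38 in CVM, beside 0.0047 for all genes, and 0.31 in HC, beside 0.62.

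The tables share no library, and their folds were set side by side for the 34 P450 genes measured in both. Higher in q2 of both were 2 genes, higher in q1 of both 11, 20 leaned to q1 in the CVM table but to q2 in the HC table, and Cyp4p2 did the reverse. Over all genes measured in both, 44.1% were higher in q2 of both, 22.8% in q1 of both, 26.3% towards q1 in CVM and q2 in HC, and 6.81% the reverse. These signs are not centred on the medians of the tables, and that of HC is 0.62. Past 2-fold towards q1 in both tables were 6 genes: Cyp6a22, Cyp6a23, Cyp6d4, Cyp6v1, Cyp9f2 and Cyp6t2Psi. That was 17.6% of the 34, beside 5.46% of all 8927 genes measured in both. Relative to the medians of the tables it was 9 genes (26.5%, beside 7.58%). Before centring, 23 of the 34 passed 2-fold towards q1 in the CVM table, beside 1477 of the 8927. Among those, the genes past 2-fold in both tables were 6 of 23, beside 487 of 1477. That share was not above that of all genes. Towards q1 of the HC table, 8 of the 34 passed 2-fold, beside 1108 of the 8927. Among those, 6 of 8 were past 2-fold in both tables, beside 487 of 1108, a share above that of all genes. Which table the excess belongs to was not tested. All 6 are clan 3 genes, and 5 of them are in Cyp6. The calls of both tables shared 3 genes, Cyp6a22, Cyp6a23 and Cyp6d4, which is 21.4% of the P450 calls in CVM and 23.1% of those in HC in the authors' deposited table for each. Over all genes the shared calls were 27.5% of the CVM calls and 18.2% of the HC calls, so the overlap of the P450 calls lay near that of all genes.

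Another 5 genes passed 2-fold on opposite sides, towards q1 in the CVM table and q2 in the HC table: Cyp4ad1, Cyp6a2, Cyp6t1, Cyp301a1 and Cyp316a1. They make up 14.7% of the 34, beside 4.16% of all genes measured in both, and 3 of them (8.82%, beside 1.86%) were left relative to the medians of the tables. Among genes 2-fold towards q1 in the CVM table they were 5 of 23, beside 371 of 1477 of all genes, a share not above that of all genes. Cyp4ad1 lay farthest apart, at -4.98 in CVM and 2.11 in HC in the authors' deposited table for each. None of the 5 was called in HC, and the difference between tables was not tested. Cyp6a2 and Cyp301a1 share their loci with other genes. Of 13 genes called in CVM and measured in HC, 8 (61.5%, beside 39.7% of such genes over the whole table) had an HC fold within 2-fold before centring, among them Cyp6a8 (-0.17), Cyp310a1 (0.41), Cyp6a16Psi (0.56) and Cyp9c1 (0.59) in the authors' deposited table for HC. The folds of Cyp310a1, Cyp6a16Psi and Cyp9c1 lie below 0 relative to the HC median. Cyp305a1 showed the other arrangement, with -4.13 in HC and -0.21 in CVM in the authors' deposited table for each. A further 4 genes called in HC, Cyp4d8, Cyp6a13, Cyp6a20 and Cyp49a1, had no test in CVM. They are 30.8% of the P450 calls in HC, beside 13.4% for the HC calls over all genes.

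**Figure D4:**
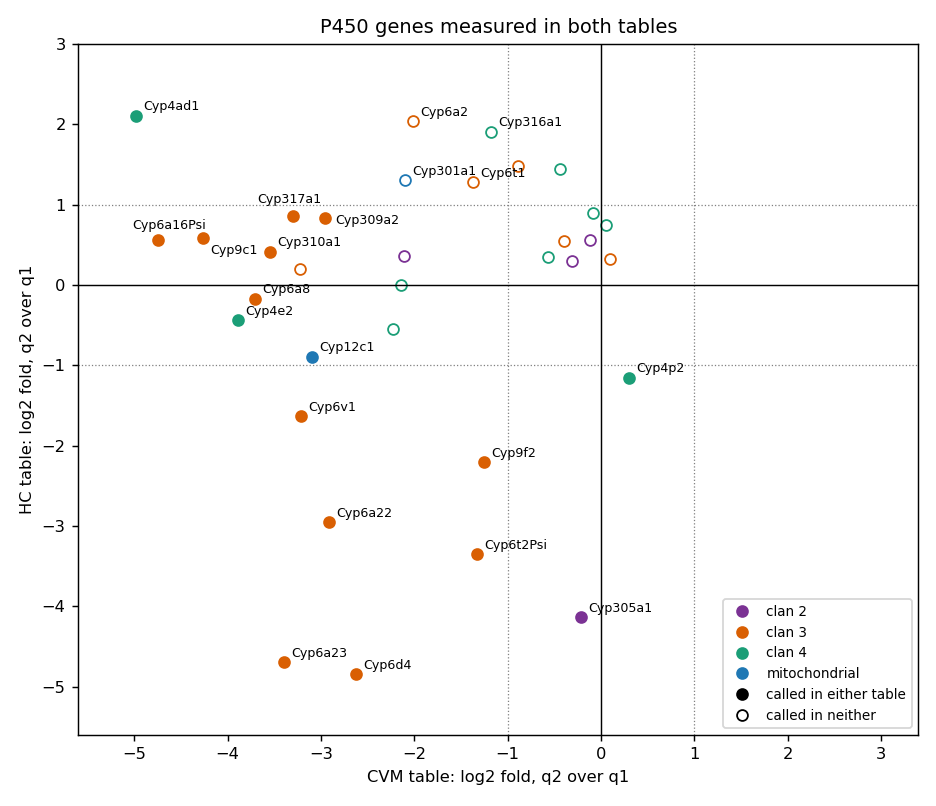
Log2 fold of q2 over q1 in CVM (horizontal axis) and HC (vertical axis) for the 34 P450 genes measured in both tables, coloured by clan, with dotted lines at 2-fold. Filled points were called in at least 1 table. Cyp6a22, Cyp6a23 and Cyp6d4 sit at the lower left, and Cyp4ad1 at -4.98 and 2.11 at the upper left.

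P450 genes often sit in rows of related copies. With gaps of at most 10 kb allowed and at least 3 members required, a definition chosen after the data were seen, 8 clusters held 31 of the 85 genes. The largest lay on arm 2R (10759178 to 10776514, BDGP5) and held 8 Cyp6a genes. For CVM, Cyp6a22, Cyp6a23 and Cyp6a8 were called there in the authors' deposited table, from -2.92 to -3.71, and Cyp6a19, Cyp6a9 and Cyp6a21 were listed at 0 in q2. Cyp6a17 (-2.86) and Cyp6a20 (0.08) had no test in the authors' deposited table for CVM. Across HC the same row, in the authors' deposited table, ran from -4.78 for Cyp6a20 to 2.47 for Cyp6a19, with Cyp6a8, at its end, at -0.17. Copies of the row thus had different folds: Cyp6a8 was among the called genes in CVM and within 2-fold in HC, whereas Cyp6a20 was called in HC and had no test in CVM.

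**Figure D5:**
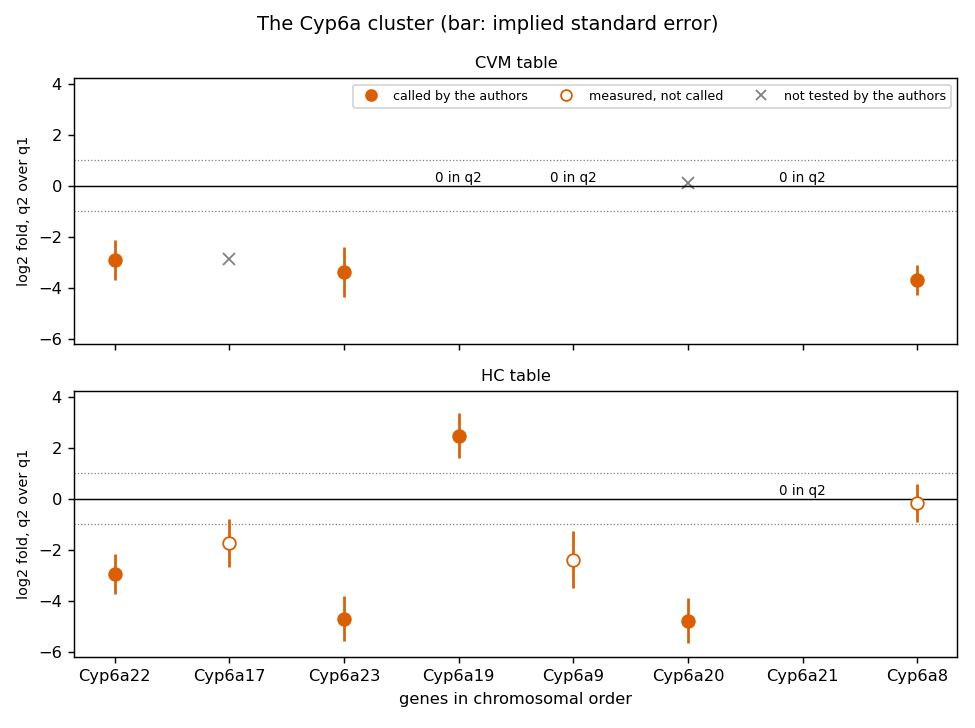
Log2 fold of q2 over q1 for the 8 genes of the Cyp6a cluster in chromosomal order, with the implied standard error as a bar, in CVM (top) and HC (bottom). Cyp6a19 and Cyp6a9 share a locus, so their order is arbitrary, and a gene listed at 0 in a condition is written as text. In HC, Cyp6a19 at 2.47 stands opposite Cyp6a23 at -4.70 and Cyp6a20 at -4.78.

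Other clusters differed from one another. Cyp4ad1 and Cyp4e2 were both called in CVM, and their neighbour Cyp4e1 had -3.51 without a test in the authors' deposited table. In HC those genes had 2.11, -0.44 and 1.56 in the authors' deposited table, or 1.49, -1.05 and 0.95 relative to the table's median. Cyp6a14 and Cyp6a13 were at -3.22 and -5.13 in HC and had no test in CVM in the authors' deposited table for each. The cluster of Cyp4d14, Cyp4d2 and Cyp4ae1 had no call in either table, with folds from -0.43 to 0.06 in CVM and from 0.74 to 1.44 in HC in the authors' deposited table for each. Relative to the HC median its HC folds run from 0.13 to 0.82, all within 2-fold.

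The P450 enzymes of ecdysone synthesis carry their own symbols and are not among the 85 genes. In the authors' deposited table for CVM, 5 of these 6 genes were measured and 0 were called, with dib at 1.12 ± 0.53, sad at 0.91 ± 0.59, spo at 0.81 ± 0.61, phm at 0.36 ± 0.62 and shd at 0.06 ± 0.67. For HC the authors' deposited table measured 4 of them, and sad, a mitochondrial enzyme of the pathway, was the only call at 2.54 ± 0.79 (q-value 0.0174). There spo had 1.73 ± 0.84, phm 1.66 ± 0.84 and shd 0.0041 ± 0.77, or -0.61 relative to the table's median, in the authors' deposited table. The oxygenase nvd, which acts on cholesterol at the start of the same pathway, lay opposite, at -3.94 ± 0.89 (q-value 0.000268) in HC and -2.64 ± 1.08 without a call in CVM in the authors' deposited table for each.

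Genes that serve P450 enzymes or act beside them were taken from lists of known genes. Of 5 genes listed as electron partners, 0 were called in HC and 1 in CVM. That call, Cyt-b5-r at -3.87 ± 0.67, is a cytochrome b5-related gene and not an established partner of P450 enzymes. In HC, 0 of the 5 passed 2-fold in either direction. Relative to the table's median, 3 were 2-fold higher in q1: Cyt-b5 (-1.57), Cyt-b5-r (-1.20) and dare (-1.17). The share over all measured genes was 22.1%. The general reductase gene Cpr had -0.05 ± 0.35 in CVM and 0.57 ± 0.59 (-0.05 relative to the table's median) in HC in the authors' deposited table for each. Of 12 regulators, EcR (the ecdysone receptor, -1.02 ± 0.22) and ftz-f1 (a nuclear receptor, -3.68 ± 0.58) were called in CVM, and gce (a juvenile hormone receptor, -4.42 ± 0.92) in HC, in the authors' deposited table for each. The xenobiotic regulators cnc, Keap1 and Hr96 were not called in either table. Of 3 juvenile hormone genes, jhamt, which makes the hormone, was called in HC at 2.67 ± 0.85 and had -2.77 ± 0.98 without a call in CVM in the authors' deposited table for each.

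Conjugating enzymes and esterases of detoxification were described by the same counts. Over all measured genes of CVM, 4.58% were 2-fold higher in q2 and 17.6% in q1. In HC these shares were 35.4% and 13.3%, or 16% and 22.1% relative to the table's median. Of all genes of status OK, 0.728% were called higher in q2 and 8.23% in q1 of CVM. The called shares in HC were 6.85% and 5.75%. Calls below are set beside measured genes, not genes of status OK. Of 17 measured glutathione transferases in CVM, 0 were 2-fold higher in q2 and 9 in q1, with 0 called and a median of -1.26. Their counterparts in HC numbered 15, with 1 past 2-fold in q2 and 7 in q1 and a median of -0.58, or -1.20 relative to the table's median. Of these 4 were called, all higher in q1: GstE6 (-3.01), GstD3 (-2.94), GstD5 (-2.45) and GstE7 (-2.20) in the authors' deposited table for HC. Past 2-fold, UDP-glycosyltransferases had 0 in q2 and 5 in q1 of 6 measured in CVM, and 2 in q2 and 2 in q1 (3 relative to the table's median) of 6 in HC. They had 2 of 6 measured called in CVM, Ugt36Bc (-3.11) and Ugt58Fa (-2.10), and 1 of 6 in HC, Ugt58Fa again, at -4.96, in the authors' deposited table for each. Carboxylesterases and epoxide hydrolases had 0 of 7 measured genes past 2-fold in q2 and 6 in q1 of CVM, and 3 of 12 in q2 and 6 in q1 of HC, or 2 and 7 relative to the table's median. They had 2 of 7 called in CVM, Jheh3 (-2.37) and alpha-Est1 (-2.14), both higher in q1. In HC they had 1 of 12 called higher in q2, alpha-Est6, and 4 higher in q1, alpha-Est1 (-6.94), alpha-Est8 (-3.98), alpha-Est4 (-3.18) and alpha-Est2 (-3.17), in the authors' deposited table.

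Markers of tissues, among them some known for P450 expression, lay on both sides in CVM. Among midgut markers 0 of 6 measured were 2-fold higher in q2 and 5 in q1 (median -5.03), and among fat body markers 0 of 2 and 2 of 2 (median -2.31). Hemocyte markers had 0 of 8 and 3 of 8 (median -0.74), Malpighian tubule markers 0 of 4 and 1 of 4 (median 0.69), and oenocyte markers 0 of 2 and 1 of 2. The 2 counted oenocyte markers were salm, at 0.92 without a call, and Hnf4, called at -1.93, in the authors' deposited table for CVM. Another gene of that list, vvl, was entered under its full name and so counted only with trachea. It was called at 1.17 in CVM. In HC, midgut markers had 2 of 2 measured at least 2-fold higher in q2, or 0 relative to the table's median, and 0 in q1 (median 1.25), fat body markers 0 of 2 in either direction (median -0.21), or 1 of 2 higher in q1 relative to the table's median, crystal cell markers 0 of 4 and 3 of 4 (median -7.88), and Malpighian tubule markers 3 of 4 and 0 (median 1.95). Both counted oenocyte markers were called there, salm at 2.08 and Hnf4 at -2.87, in opposite directions in the authors' deposited table for HC. The uncounted vvl was called at 1.98 in HC. The lists overlap: salm is both a Malpighian tubule and an oenocyte marker here, and byn both a Malpighian tubule and a CVM marker. The part of these cell types in the P450 folds was not tested.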

How the data were processed

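RNA of 4 sorted populations, 1 library each, was compared by the authors in 2 gene tables named CVM and HC. Tools listed in the submitters' processing notes are Cuffdiff, Cufflinks 1.3.0, TopHat 1.3.3 and Bowtie 0.12.7, with BDGP5 as the genome build. The annotation release and the depth of the libraries are not given in the sources used here. Per the file headers, the deposited fold is a log2 value in CVM and a natural log (ln) value in HC, which was divided by the natural log of 2. These columns and the test statistic were handled as a score, as the authors' infinite folds are written as an extreme number. Each p-value and q-value was computed by the authors, per the file headers; 568 q-values of HC lay above 1, so the deposited column was read as a score. The FPKM values, in 4 columns, were left out, as q1 and q2 match no label.

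A gene was measured with status OK and a finite fold, leaving out genes with fold and statistic of exactly 0. The implied standard error is the log2 fold divided by the statistic, taken without sign. For the measured P450 genes the deposited statistic has the opposite sign to the fold, and every direction given here is that of the fold. With 1 library per population no test was made, and genes were counted past 2-fold. Called genes, also written as called by the authors, had status OK and the authors' q-value under 0.05, a limit applied here. The start of each locus counts from 0 in the tables, checked on gene lengths of a current annotation, so 1 was added. Of 85 gene IDs, 84 matched the current symbol table. The genes named include those called in either table, those at least 2-fold in both and the 10 largest folds per direction and table. They also include the extremes of each family with 3 or more measured genes, and called genes of the other lists. Further genes outside these rules, such as Cyp18a1, Cyp303a1 and Cpr, were named by choice. The members and lists were chosen with earlier results of these data known. Of the marker lists, trachea had 2 of 4 genes called higher in q2 and 1 in q1 in CVM, and 3 and 1 of 4 in HC. Epidermis had 2 of 2 measured genes called in CVM and 2 of 3 in HC, all higher in q2. Prothoracic gland had 0 of 4 called in CVM and 1 of 3 in HC, higher in q1. Counting was tested on simulated folds. Python 3.11.15, pandas 2.3.3, numpy 2.4.6 and matplotlib 3.10.9 were used.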

Additional observations from a re-analysis of the deposited data

How the results depend on the processing

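Counts, calls and medians of P450 genes were recomputed under other choices. Of 58 recomputed values, 46 stayed within 1.5 times the count or 0.1 of the median. Some of these could not change or could hardly change. Keeping folds of exactly 0 adds no gene past 2-fold, and a stricter limit cannot raise 0 calls. Centring the CVM table shifts its folds by only 0.0047. With only genes that have a locus of their own, CVM had 1 gene 2-fold higher in q2 and 16 in q1, and HC had 6 higher in q2 and 0 called higher in q2. At 4-fold, 0 genes of CVM and 3 of HC were higher in q2. Centring on the table median left 4 HC genes higher in q2 and turned the HC median to -0.31. At a q-value under 0.01, 1 HC gene was called higher in q2. The CVM median was -1.04 over every status, -1.22 with the ecdysone enzymes and -1.70 without pseudogenes, an alternative chosen after seeing the data. The cause of these changes was not tested, beyond the smaller number of genes under each stricter choice. Alternatives on FPKM were not run, as its columns match no population. No paired analysis was possible because each population had 1 library. Depth is unknown, and the implied standard errors of P450 genes, with medians of 0.89 in CVM and 0.87 in HC, limit what folds near 2-fold show. Over all measured genes the medians were smaller, 0.54 in CVM and 0.72 in HC. The shares past 2-fold thus set P450 genes beside genes with smaller errors.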

Other observations

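Among P450 genes without a test, some folds recurred to 3 decimals. In the authors' deposited table for HC, Cyp12d1-p, Cyp12d1-d and Cyp12e1 all had a log2 fold of 1.106. In the authors' deposited table for CVM, Cyp12a5 and Cyp312a1 had -0.054, and Cyp313a3 and Cyp313a4 had 0.946.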
